A study of Tribolium castaneum with 6 samples.

Results

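Only 6 genes in the transcript tables of *T. castaneum* larvae with suppressed TcAMPKα carry a classical symbol of insect immunity, and they are described here one by one. They were taken by symbol alone, from the stems used for peptidoglycan recognition proteins (PGRP), Gram-negative binding proteins (GNBP), Toll, Spätzle (spz), MyD88, Tube, Pelle, Cactus (cact), Dif, Dorsal (dl), Imd, Relish, thioester proteins, prophenoloxidases (PPO) and numbered defensins, cecropins, attacins, coleoptericins and lysozymes. Of 15099 genes in all, 6 matched. Of these, Gnbp2 is a recognition gene, 4 belong to signalling (spz6, Spz3, Cact and Dl) and 1 is an effector (cec2). The rule uses no measured value, but it was chosen with earlier results of these data known. Both groups were larvae of the Georgia-1 (GA-1) strain, unsexed, injected at 20 days of age with about 200 ng of double-stranded RNA. The dsTcAMPKα group received double-stranded RNA against the catalytic α subunit of AMP-activated protein kinase, the cellular sensor of low energy, and the dsEGFP group received double-stranded RNA against a fluorescent protein gene that the beetle lacks. Each library was made 6 days after injection from 10 pooled whole larvae, with 3 libraries per group. Since whole larvae were sequenced, fewer cells of a type and less RNA per cell cannot be told apart. Both groups carry an injection and double-stranded RNA, and uninjected larvae are not analysed here.

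In insects, circulating recognition proteins of the GNBP and PGRP families bind fungal glucans and bacterial peptidoglycan and start a cascade of serine proteases in the haemolymph. The cascade cuts Spätzle, a secreted cytokine with a neurotrophin-like fold, and cut Spätzle binds Toll receptors. Inside the cell MyD88, Tube and Pelle then lead to the destruction of Cactus, the IκB protein that holds the NF-κB factor Dorsal in the cytoplasm, and Dorsal enters the nucleus. The IMD pathway runs in parallel from PGRP receptors through Imd and the caspase Dredd to the NF-κB factor Relish. Fat body and haemocytes are the main sources of the antimicrobial peptides at the end of both routes, such as cecropins, which are short cationic peptides that damage bacterial membranes. In *Drosophila* the Toll pathway also patterns the embryo along its dorsal and ventral axis.

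Values are FPKM, fragments per kilobase of transcript scaled to the library total, summed over the transcripts of a gene, so that levels are per length and can be compared between genes. Between 33518139 and 37584930 reads per library were estimated to lie on transcripts. The targeted gene, listed as Snf1a, had 10.7, 7.32 and 16.3 FPKM in the dsTcAMPKα libraries, against 77.3, 74.9 and 56.9 FPKM in the dsEGFP libraries (log2 fold change -2.56, adjusted p = 0.0164, limma). Its call was lost without dsTcAMPKα replicate 1, dsTcAMPKα replicate 2 or dsEGFP replicate 2, with log2 fold changes of -2.55, -2.30 and -2.50 and adjusted p values of 0.0877, 0.0934 and 0.0591. Across the 10981 genes with a mean of at least 1 FPKM, the dsEGFP replicate 3 stood apart: its log2 values correlated at r = 0.907 and 0.905 with the dsEGFP replicates 1 and 2, which correlated with each other at r = 0.980. Over all tested genes the log2 fold change had a median of 0.20 and was larger in genes with longer transcripts (rho = 0.636 by Spearman, across genes). Changes of the immune genes are therefore also given after median-ratio size factors, which set that median to 0, and after a correction for transcript length.

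Calls required an adjusted p under 0.05 in limma together with a log2 fold change beyond 1 in either direction, the thresholds of the study. Of the 6 immune genes, 1 was called, the Spätzle family gene spz6, which was lower in dsTcAMPKα larvae. In the background of all tested genes 6.8% were called, with 4.09% higher and 2.71% lower. By adjusted p alone 3 of the 6 passed, Dl and Cact higher and spz6 lower, where 16.5% of all tested genes passed. Over the 6 genes the median log2 fold change was 0.42, with 4 positive and 2 negative values. In 3 of the 6 the groups did not overlap (2 higher, 1 lower), and the share among all tested genes was 44.8%, with 31.2% higher and 13.6% lower.

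**Figure D1:**
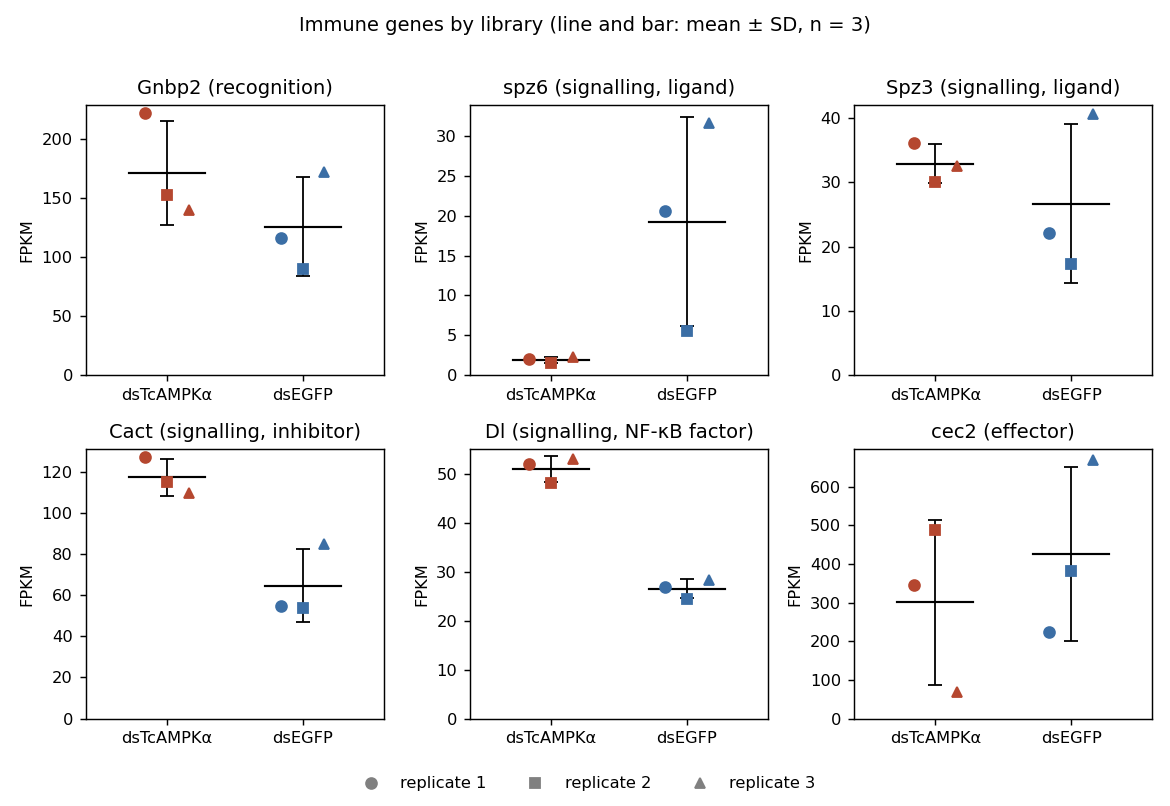
FPKM of the 6 immune genes in each library, dsTcAMPKα left and dsEGFP right in every panel, with 1 symbol per replicate, the mean as a line and the SD as a bar (n = 3 each). The groups are separate in spz6, Cact and Dl and overlap in Gnbp2, Spz3 and cec2, and the dsEGFP replicate 3 is the highest dsEGFP library in all 6 panels.

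The recognition gene Gnbp2, a member of the family of β-1,3-glucan-binding proteins, did not differ beyond the spread between libraries. It lies on sequence NC_007418.3 of the Tcas5.2 genome from 3658956 to 3660936 on the minus strand, with 8 exons and a transcript of 1411 nt. Gnbp2 had 222, 152 and 140 FPKM in the dsTcAMPKα libraries, against 116, 89.8 and 172 FPKM in the dsEGFP libraries. The highest dsEGFP library thus lay above 2 of the 3 dsTcAMPKα libraries. The means were 171 ± 44.2 FPKM in dsTcAMPKα larvae and 126 ± 41.9 FPKM in dsEGFP larvae (SD, n = 3 each), a log2 fold change of 0.46 ± 0.29 (SE, limma adjusted p = 0.288). For Gnbp2 median-ratio size factors gave 0.24 and the length correction 0.34. It was among the more abundant transcripts of the larvae, at percentile 94.9 of all tested genes in dsTcAMPKα larvae and 92.4 in dsEGFP larvae.

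Among the signalling genes, spz6 and Spz3 carry symbols of the Spätzle family, and whether their products bind Toll was not tested. The gene spz6 was lower in every dsTcAMPKα library. It lies on NC_007422.5 from 7097266 to 7101786 on the minus strand, with 6 exons and a transcript of 1723 nt. Its levels were 1.97, 1.56 and 2.25 FPKM in the dsTcAMPKα libraries, against 20.6, 5.57 and 31.6 FPKM in the dsEGFP libraries. All dsTcAMPKα values were below all dsEGFP values, and the spread was almost wholly within dsEGFP. The means were 1.93 ± 0.347 FPKM in dsTcAMPKα larvae and 19.3 ± 13.1 FPKM in dsEGFP larvae (SD, n = 3 each), with a ratio of means of 0.1. On the log2 scale spz6 fell by 2.52 ± 0.56 (SE, limma adjusted p = 0.0344). The estimated reads behind these values ran from 97.1 to 2081 per library. Among the tested genes spz6 dropped to percentile 8.89 in dsTcAMPKα larvae, against percentile 53.7 in dsEGFP larvae. Within dsEGFP it was one of the most variable genes, with only 3.77% of tested genes showing a larger SD of log2 values.

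The call of spz6 held with median-ratio size factors (log2 fold change -2.68, adjusted p = 0.0311), a setting that called 5.44% of all tested genes. With the length correction, where 1.1% of all tested genes were called and 1.24% passed by adjusted p, the difference was -2.77 and the adjusted p was 0.0736, and limma-voom on estimated reads gave -3.01 and 0.0589. Leaving out dsTcAMPKα replicate 1, 2 or 3 or dsEGFP replicate 1 gave log2 fold changes from -2.60 to -2.33, and the adjusted p was then between 0.081 and 0.115. Without dsEGFP replicate 3 the difference was -2.03 and the adjusted p 0.0268. A loss of calls on leaving out a library was not particular to this gene: without dsTcAMPKα replicate 1 or 2 limma called 0 genes of the whole table, where 2896 and 2957 genes had an unadjusted p under 0.05.

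Spz3, another gene of the Spätzle family, did not differ beyond the spread between libraries. It lies on NC_007423.3 from 5149337 to 5167334 on the minus strand. Its levels were 36.2, 30.1 and 32.5 FPKM in the dsTcAMPKα libraries, against 22.1, 17.3 and 40.7 FPKM in the dsEGFP libraries. The dsEGFP replicate 3 was the highest of all 6 libraries, while the other dsEGFP libraries were the lowest. The means were 32.9 ± 3.04 FPKM in dsTcAMPKα larvae and 26.7 ± 12.4 FPKM in dsEGFP larvae (SD, n = 3 each), and the log2 fold change of 0.38 (standard error 0.31) had an adjusted p of 0.405 in limma. Size factors gave 0.17 and the length correction 0.36. Without dsEGFP replicate 3 the log2 fold change was 0.72 with an adjusted p of 0.0204, in a setting where 35.6% of all tested genes passed by adjusted p.

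The ratio of Spz3 to spz6 differed between the groups with no overlap. Spz3 exceeded spz6 by a factor of 18.4, 19.3 and 14.4 in the dsTcAMPKα libraries, against 1.07, 3.10 and 1.29 in the dsEGFP libraries. The mean ratio was 17.4 ± 2.58 in dsTcAMPKα larvae and 1.82 ± 1.12 in dsEGFP larvae (SD, n = 3 each; exact permutation test, two-sided p = 0.1, which is also the smallest value possible with 3 against 3 libraries). The ratio is taken within a library and so does not depend on the scaling between libraries. The level of spz6 is its denominator, so the ratio adds no evidence apart from that gene.

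The inhibitor and the transcription factor at the end of the pathway were both higher in dsTcAMPKα larvae, by less than the fold threshold. Cact, the Cactus gene, lies on the unplaced sequence NW_015450989.1 from 207520 to 240417 on the plus strand. Its levels were 127, 115 and 110 FPKM in the dsTcAMPKα libraries, against 54.9, 54.0 and 85.0 FPKM in the dsEGFP libraries. All dsTcAMPKα libraries lay above all dsEGFP libraries, and the dsEGFP replicate 3 came closest to them. The means were 117 ± 9.02 FPKM in dsTcAMPKα larvae and 64.6 ± 17.7 FPKM in dsEGFP larvae (SD, n = 3 each), a ratio of 1.82. Its log2 fold change was 0.88 ± 0.21 (SE, limma adjusted p = 0.0384).

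The adjusted p of Cact was 0.0589 with median-ratio size factors, at a log2 fold change of 0.66. With the length correction the log2 fold change was 0.63 and the adjusted p 0.148. Without dsTcAMPKα replicate 1, 2 or 3 or dsEGFP replicate 1 or 2 the log2 fold change was between 0.77 and 0.93, and the adjusted p from 0.0924 to 0.128. Without dsEGFP replicate 3 it was 1.09 (adjusted p = 0.00743), past both thresholds, which 10.9% of all tested genes passed in that setting.

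Dl varied least of the 6 genes, with coefficients of variation of 5.19% in dsTcAMPKα larvae and 7.48% in dsEGFP larvae. The symbol stands for Dorsal, since RefSeq gives it the synonym Tc-dl and lists the Notch ligand Delta as another gene. Dl lies on NC_007419.2 from 637201 to 648892 on the minus strand. It had 52.0, 48.1 and 53.1 FPKM in the dsTcAMPKα libraries, against 26.8, 24.5 and 28.4 FPKM in the dsEGFP libraries. Each group spanned only a few FPKM and the gap between them was several times wider. The means were 51.1 ± 2.65 FPKM in dsTcAMPKα larvae and 26.6 ± 1.99 FPKM in dsEGFP larvae (SD, n = 3 each), a ratio of 1.92. Its log2 fold change was 0.92 ± 0.13 (SE, limma adjusted p = 0.0213), and scaled by median-ratio size factors it was 0.70 (adjusted p = 0.0231), where 12.7% of all tested genes passed.

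With the length correction the log2 fold change of Dl was 0.55 and the adjusted p 0.076. Without dsTcAMPKα replicate 1, 2 or 3 or dsEGFP replicate 2 the log2 fold change was 0.86 to 0.96 and the adjusted p 0.0701 to 0.0989. Without dsEGFP replicate 3 it was 0.97 (adjusted p = 0.0089).

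The ratio of inhibitor to factor overlapped between the groups. Cact exceeded Dl by a factor of 2.45, 2.39 and 2.07 in the dsTcAMPKα libraries, against 2.05, 2.21 and 2.99 in the dsEGFP libraries. The mean ratio was 2.30 ± 0.207 in dsTcAMPKα larvae and 2.42 ± 0.507 in dsEGFP larvae (SD, n = 3 each; two-sided exact permutation test, p = 0.9). With 3 libraries per group this does not show that the ratios are equal.

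Spz3, Cact and Dl have a pair of transcripts each, and the sums above hide how these shared the level. For Cact both transcripts are annotated, and the one with 3 exons (1714 nt, starting at 219285) carried most of the level in every library. It had 103, 96.6 and 94.5 FPKM in the dsTcAMPKα libraries, against 49.0, 47.5 and 68.6 FPKM in the dsEGFP libraries. The transcript with 4 exons (1582 nt, starting at 207520) had 24.0, 18.3 and 15.2 FPKM in the dsTcAMPKα libraries, against 5.84, 6.44 and 16.4 FPKM in the dsEGFP libraries, so that dsEGFP replicate 3 lay within the dsTcAMPKα range. The ratio of means was 1.78 for the transcript with 3 exons and 2.01 for that with 4, and the difference between these ratios was not tested.

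Dl has an annotated transcript of 9 exons (2104 nt) and an assembled one of 8 exons (2031 nt) over the same span. The annotated transcript had 18.6, 20.0 and 18.3 FPKM in the dsTcAMPKα libraries, against 8.52, 11.1 and 2.25 FPKM in the dsEGFP libraries. Its share of the gene was 35.7%, 41.7% and 34.4% in the dsTcAMPKα libraries, against 31.7%, 45.4% and 7.90% in the dsEGFP libraries. The dsEGFP replicate 3 held almost all of its Dl level in the assembled transcript, at 26.2 FPKM. On annotated transcripts alone the log2 fold change of Dl was 1.47 with an adjusted p of 0.0923. Both transcripts share their start and end, and the division of the level between them is the assembler's estimate.

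Spz3 has an assembled transcript (1229 nt over 9011 bp) and an annotated one (1438 nt), both with 4 exons and the same start coordinate. The assembled transcript had 30.4, 20.0 and 20.4 FPKM in the dsTcAMPKα libraries, against 12.6, 11.4 and 28.7 FPKM in the dsEGFP libraries. The annotated transcript had 5.80, 10.1 and 12.1 FPKM in the dsTcAMPKα libraries, against 9.43, 5.92 and 12.0 FPKM in the dsEGFP libraries. Both overlapped between the groups, and on the annotated transcript alone the log2 fold change was 0.02.

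**Figure D2:**
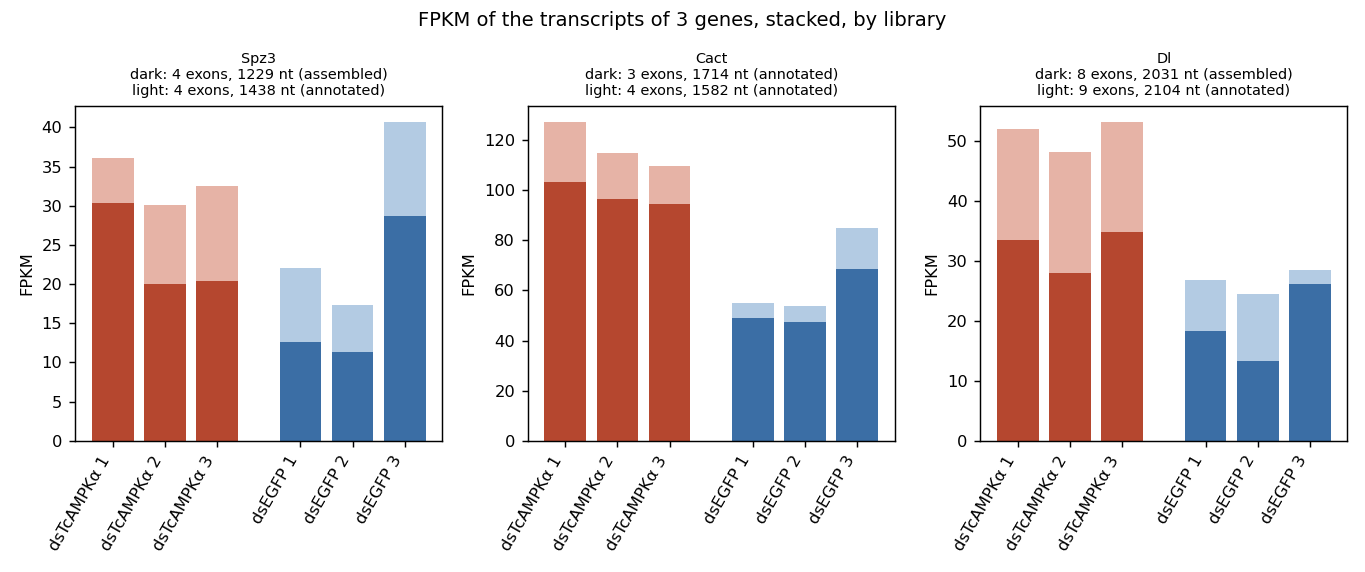
FPKM of the transcripts of Spz3, Cact and Dl in each library, stacked to the gene's level, dsTcAMPKα libraries left and dsEGFP libraries right. The light part of Dl, its annotated transcript, is 2.25 FPKM in dsEGFP replicate 3 and between 8.52 and 20.0 FPKM in the other libraries.

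The effector cec2, a cecropin gene, had the highest mean level of the 6 genes in both groups and the largest coefficient of variation of them in dsTcAMPKα larvae (70.8%). In dsEGFP larvae its coefficient of variation was 52.9%, below the 67.8% of spz6. It lies on NC_007417.3 from 10554722 to 10555142 on the minus strand, with 2 exons and a transcript of 363 nt. Its levels were 346, 487 and 69.0 FPKM in the dsTcAMPKα libraries, against 225, 382 and 668 FPKM in the dsEGFP libraries. The lowest library of all was dsTcAMPKα replicate 3 and the highest dsEGFP replicate 3, and the other libraries were interleaved. The means were 301 ± 213 FPKM in dsTcAMPKα larvae and 425 ± 225 FPKM in dsEGFP larvae (SD, n = 3 each), with a log2 fold change of -0.76 ± 0.77 (SE, limma adjusted p = 0.506). The log2 fold change of cec2 was -0.98 with size factors and -0.15 with the length correction. Without dsTcAMPKα replicate 3 the sign turned and the log2 fold change was 0.09 (adjusted p = 0.918). Only 1.45% of all tested genes varied more than cec2 between the dsTcAMPKα libraries, by the SD of log2 values.

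Both neighbours of cec2 lie on the same strand, have no name in the sources used here and were looked up after values had been seen. LOC107399227, 301 bp away, was low, at 1.34, 1.54 and 4.56 FPKM in the dsTcAMPKα libraries, against 1.48, 1.45 and 2.96 FPKM in the dsEGFP libraries, and dsTcAMPKα replicate 3 was its highest library. LOC103315122 lies 342 bp away on the other side. It had 298, 293 and 80.6 FPKM in the dsTcAMPKα libraries, against 252, 352 and 427 FPKM in the dsEGFP libraries, with a log2 fold change of -0.80 ± 0.53 (SE, limma adjusted p = 0.309). As in cec2, dsTcAMPKα replicate 3 was the lowest library and dsEGFP replicate 3 the highest. In the gene beyond it, LOC103315121, dsEGFP replicate 3 was again the highest library but dsTcAMPKα replicate 3 was not the lowest, with 48.2, 27.7 and 14.8 FPKM in the dsTcAMPKα libraries, against 12.3, 9.82 and 83.9 FPKM in the dsEGFP libraries. None of the 6 immune genes overlaps another gene in the tables, and the nearest neighbour lies between 23 bp (Gnbp2) and 5023 bp (Cact) away.

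Across the members, the dsEGFP replicate 3 was the highest dsEGFP library for 6 of 6 genes, while it was the highest for 48.6% of all tested genes. The dsEGFP replicate 2 was the lowest dsEGFP library for 5 of 6, and for 48.0% of all tested genes. Levels fell in the order cec2, Gnbp2, Cact, Dl, Spz3 and spz6 in dsTcAMPKα larvae, where the range of cec2 overlapped those of Gnbp2 and Cact and no other ranges met. In dsEGFP larvae the order was cec2, Gnbp2, Cact, Spz3, Dl and spz6, and the ranges of Spz3, Dl and spz6 overlapped.

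**Figure D3:**
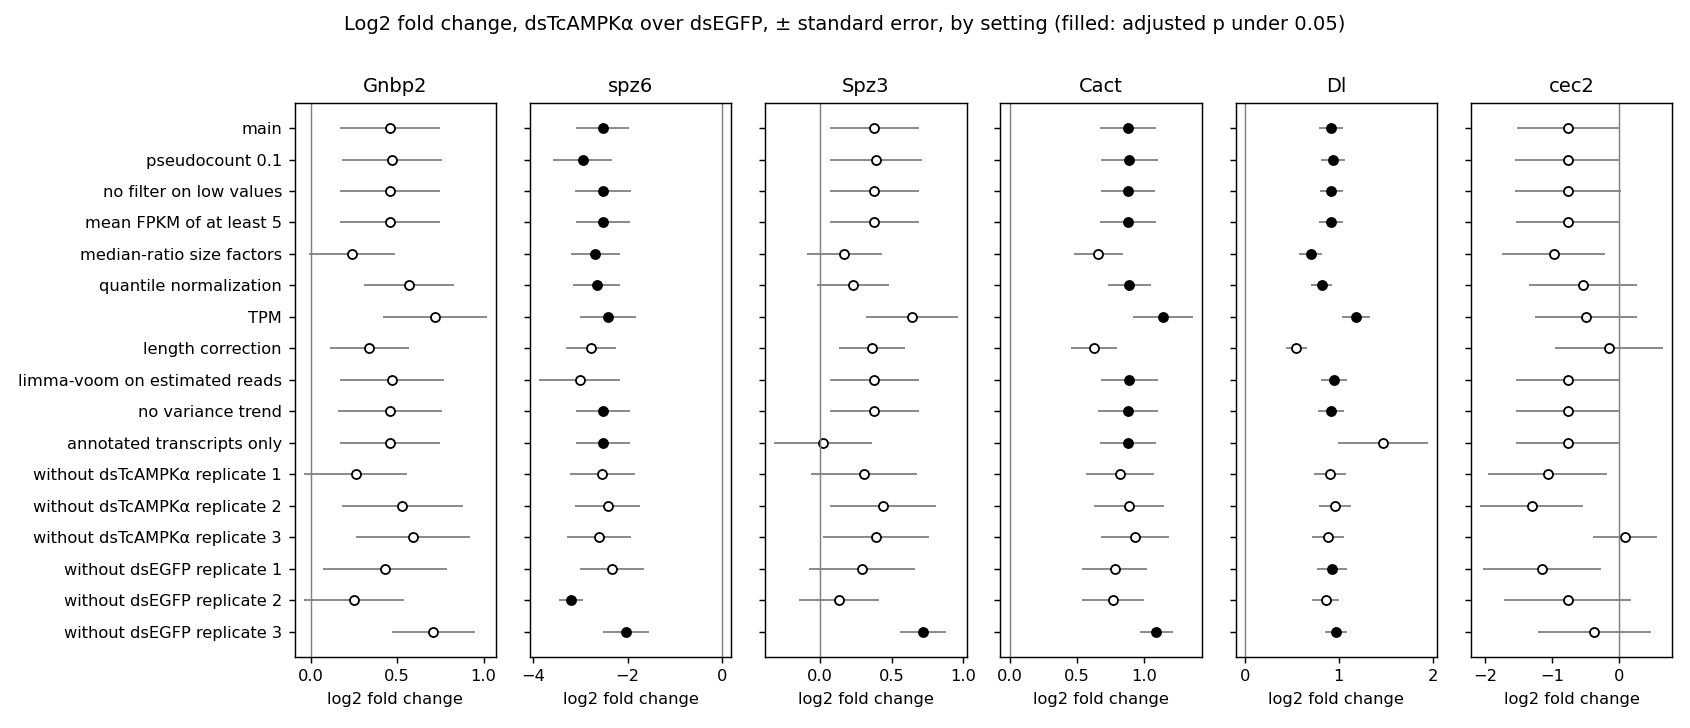
Log2 fold change of the 6 immune genes, dsTcAMPKα over dsEGFP, with its standard error, under the main setting and each alternative, filled where the adjusted p was under 0.05. The sign of Gnbp2, spz6, Spz3, Cact and Dl is the same in every row, and cec2 crosses 0 without dsTcAMPKα replicate 3.

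Other genes of the Toll and IMD pathways are listed under locus identifiers, and 11 of them were found through their current RefSeq symbols with the same stems. By adjusted p, 0 of the 11 rose and 1 fell, while 11.2% of all tested genes passed higher and 5.29% lower. Their median log2 fold change was 0.20, equal to that of all tested genes. After the length correction it was -0.20, with 3 positive and 8 negative values.

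The 1 that fell is a further Spätzle gene, spz4 (LOC100142309). It had 0.0687, 0.104 and 0.558 FPKM in the dsTcAMPKα libraries, against 9.68, 3.50 and 6.44 FPKM in the dsEGFP libraries. All dsTcAMPKα libraries were below 1 FPKM, and all dsEGFP libraries were above them. It fell by 2.53 on the log2 scale (standard error 0.35, adjusted p = 0.0211, limma), and with the length correction the log2 fold change was -2.70 (adjusted p = 0.0309). Its ratio of means was 0.0372, and the log2 fold change of a gene this low rests on the scale: it was -4.44 with a pseudocount of 0.1 and -5.18 with limma-voom, against -2.95 and -3.01 for spz6. Without dsTcAMPKα replicate 1, 2 or 3 the log2 fold change was -2.44, -2.46 and -2.71, with adjusted p values of 0.0897, 0.0989 and 0.0695.

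The Spätzle family gene spz5 (LOC659389) was also lower in every dsTcAMPKα library, at 0.364, 0.246 and 0.736 FPKM, against 1.24, 1.21 and 2.36 FPKM in the dsEGFP libraries. Its log2 fold change was -0.83, with a limma adjusted p of 0.073. Of the 4 Spätzle genes that carry a symbol, spz4 and spz6 fell, where 5.29% of all tested genes did by adjusted p. The gene spz5 did not pass, and the groups were separate for all of spz4, spz5 and spz6, as for the 13.6% of all tested genes that were separate and lower. Spz3 overlapped.

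Among the genes found by RefSeq symbol, the receptor and adaptor genes did not pass the test. The Toll-like receptor genes Toll-6, Toll-7 and Tollo had log2 fold changes of 0.20, 0.62 and 0.59, and their groups overlapped. The adaptor Myd88 was at -0.05 and the kinase pll (Pelle) at 0.00, with adjusted p values of 0.902 and 0.994. The gene imd, the adaptor of the IMD pathway, had a log2 fold change of 0.32, and PGRP-LB, in *Drosophila* an amidase that degrades peptidoglycan, one of -0.24. The gene cactin, whose product binds Cactus in *Drosophila*, had 0.59 (adjusted p = 0.0638). All its dsTcAMPKα values lay above all dsEGFP values, as in 31.2% of all tested genes.

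The NF-κB factor of the IMD pathway, Rel (Relish, LOC659499), had 159, 164 and 204 FPKM in the dsTcAMPKα libraries, against 81.8, 64.7 and 153 FPKM in the dsEGFP libraries. The groups did not overlap, although dsEGFP replicate 3 came close, and 31.2% of all tested genes were likewise separate and higher. Its log2 fold change was 0.90 ± 0.32 (SE, limma adjusted p = 0.0971), with size factors 0.68 (0.152), with the length correction 0.36 (0.6), and without dsEGFP replicate 3 it was 1.25 (adjusted p = 0.0098).

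The locus LOC656158 has no RefSeq symbol and was not part of the list above. It appears as a protein toll in a list of changed genes that the study drew from these same libraries. Its direction is therefore no independent evidence. LOC656158 had 190, 122 and 141 FPKM in the dsTcAMPKα libraries, against 53.1, 44.0 and 88.8 FPKM in the dsEGFP libraries. Its log2 fold change was 1.31 ± 0.30 (SE, limma adjusted p = 0.036), and after the length correction it was 0.40 (adjusted p = 0.654). Without dsTcAMPKα replicate 1, 2 or 3 or dsEGFP replicate 1 or 2 the adjusted p lay between 0.0842 and 0.122.

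**Figure D4:**
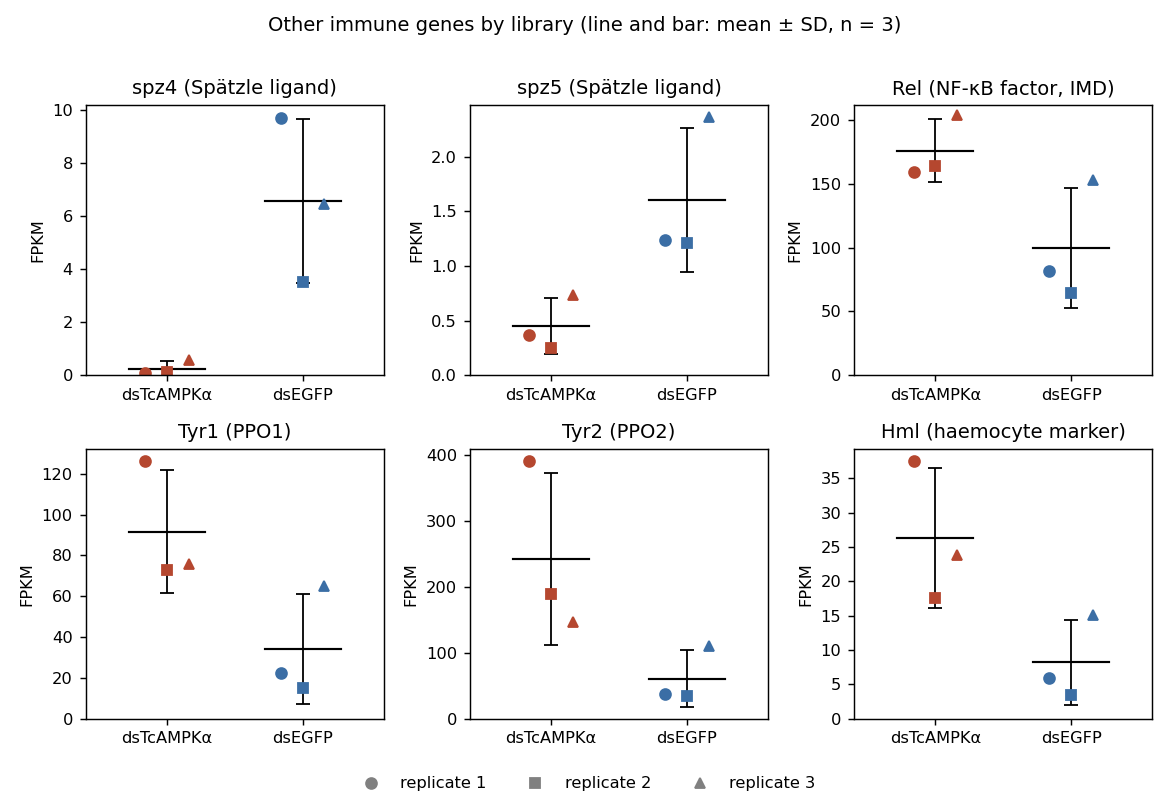
FPKM of the Spätzle genes spz4 and spz5, of Rel, of the prophenoloxidase genes Tyr1 and Tyr2 and of the haemocyte marker Hml in each library, dsTcAMPKα left and dsEGFP right, with mean and SD (n = 3 each). Both Spätzle genes are lower in all dsTcAMPKα libraries and the other 4 genes are higher in all of them, and dsEGFP replicate 3 is the highest dsEGFP library for Rel, Tyr1, Tyr2 and Hml.

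The prophenoloxidases, which start the melanin reaction at wounds and around parasites, are listed as Tyr1 and Tyr2 with the RefSeq synonyms PPO1 and PPO2, so that the symbol rule did not take them. They and the lysozyme gene were looked up after other results had been seen. Tyr1 had 126, 72.8 and 75.9 FPKM in the dsTcAMPKα libraries, against 22.5, 15.0 and 64.9 FPKM in the dsEGFP libraries (log2 fold change 1.62, adjusted p = 0.0784, limma). Tyr2 had 391, 188 and 147 FPKM in the dsTcAMPKα libraries, against 37.2, 34.5 and 111 FPKM in the dsEGFP libraries (log2 fold change 2.06, adjusted p = 0.0482, limma). In both genes every dsTcAMPKα library was above every dsEGFP library, as in 31.2% of all tested genes. The adjusted p of Tyr2 was 0.0643 under size factors and 0.196 under the length correction, and it was between 0.101 and 0.14 without any 1 library other than dsEGFP replicate 3. Tyr1 passed without dsEGFP replicate 3, at 2.21 (adjusted p = 0.00944), and had adjusted p values of 0.104 under size factors and 0.286 under the length correction. Lyz, a lysozyme gene whose product cuts bacterial cell walls, had a log2 fold change of -0.35 (adjusted p = 0.542), with overlapping groups.

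Markers of haemocytes, the cells that release prophenoloxidase, were read beside these genes. Hml (LOC659879), hemocytin, a clotting protein of haemocytes, had 37.5, 17.6 and 23.9 FPKM in the dsTcAMPKα libraries, against 5.98, 3.41 and 15.1 FPKM in the dsEGFP libraries (log2 fold change 1.72, adjusted p = 0.0622, limma). Its log2 fold change without dsEGFP replicate 3 was 2.23 and its adjusted p 0.0118, while the length correction gave 0.62 (adjusted p = 0.684). The second marker, NimA, had a log2 fold change of 0.47 with overlapping groups, and the third, gcm, was at most 0.157 FPKM in any library. Of the 3 markers 2 were tested and 0 passed, where 16.5% of all tested genes passed by adjusted p. The summed level of the 3 markers was 101 to 218 FPKM in dsTcAMPKα libraries and 51.2 to 198 FPKM in dsEGFP libraries, most of it NimA in every library. Fat body markers (6 hexamerin genes and apolpp) summed to 3816 to 15890 FPKM in dsTcAMPKα libraries and 5396 to 13710 FPKM in dsEGFP libraries, most of it hexamerin. Of these 7 genes 0 passed, beside the same 16.5% of all tested genes. Their log2 fold changes were positive in 3 and negative in 4. The median was -0.20, and -0.62 after the length correction. The lipophorin gene apolpp, whose product carries lipids in the haemolymph, was separate between the groups, with 538, 368 and 564 FPKM in the dsTcAMPKα libraries, against 141, 116 and 10.8 FPKM in the dsEGFP libraries (log2 fold change 3.06, adjusted p = 0.0653, limma). It was 2.07 with the length correction (adjusted p = 0.24), and without dsEGFP replicate 3 it was 1.91 and passed (adjusted p = 0.00871). The part of the number of haemocytes or fat body cells in the immune values was not tested.

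Genes marking other tissues and the stage of the moult were read in the same way, beside the 16.5% of all tested genes that passed by adjusted p. Among 20 tested midgut genes Pmp14 rose (1.30, adjusted p = 0.0368) and Pmp1-b fell by 0.93 on the log2 scale (adjusted p = 0.0277), and among 7 muscle genes the myosin gene Mhc rose (0.82, 0.0475), with its sign turned after the length correction (-0.06). Of 27 epidermal and cuticle genes and 9 nervous system genes 0 passed. Among 9 genes of moult and stage, Kr-h1, which responds to juvenile hormone, rose (0.91, adjusted p = 0.0293), and Hr3, a nuclear receptor induced by the moulting hormone ecdysone, fell. Hr3 had 4.58, 7.65 and 5.72 FPKM in the dsTcAMPKα libraries, against 27.7, 13.1 and 17.3 FPKM in the dsEGFP libraries, with a log2 fold change of -1.51 (adjusted p = 0.0293) and of -2.18 after the length correction (adjusted p = 0.0248). Hr3 was the only 1 of these 5 genes to pass with the length correction, where 1.24% of all tested genes passed. Without dsTcAMPKα replicate 1, 2 or 3 or dsEGFP replicate 2 none of the 5 passed (adjusted p between 0.0703 and 0.144). In those settings, in the same order, 0, 0, 34 and 54 genes of the whole table passed by adjusted p. Without dsEGFP replicate 1 Kr-h1 and Mhc did not pass (0.065 and 0.0761). Leaving out dsEGFP replicate 3, where 35.6% of all tested genes passed, 1 midgut gene was higher and 7 lower of those tested, 4 muscle genes and 4 epidermal and cuticle genes were higher, and 1 nervous system gene was lower. The part of other tissues and of the stage of the moult in the immune values was not tested.

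Other defence pathways were read by lists of symbols. Of 5 JAK-STAT genes 3 rose by adjusted p, as did 11.2% of all tested genes: the receptor dome (log2 fold change 1.10, adjusted p = 0.0252, limma), the kinase hop (0.79, 0.0281) and the feedback inhibitor Socs36E (1.24, 0.0395). The receptor dome had 44.9, 40.2 and 48.8 FPKM in the dsTcAMPKα libraries, against 25.6, 19.7 and 16.3 FPKM in the dsEGFP libraries. The remaining members, Stat92E and Socs44A, had log2 fold changes of 0.78 and 0.72 and did not pass, and dsTcAMPKα was separate and higher in all 5, as in 31.2% of all tested genes. With median-ratio size factors dome and hop passed (adjusted p = 0.0434 and 0.0486) and Socs36E did not (0.0923). In that setting 12.7% of all tested genes passed. After the length correction 0 of the 5 passed, where 1.24% of all tested genes did. Their median log2 fold change was then 0.21, where it had been 0.79.

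Of 5 genes of the JNK and IMD kinase branches, bsk, the JNK gene, rose (0.92, adjusted p = 0.0313), with 39.3, 46.1 and 57.0 FPKM in the dsTcAMPKα libraries, against 29.0, 22.0 and 22.4 FPKM in the dsEGFP libraries. The caspase gene Dredd and the AP-1 genes kay and Jra had log2 fold changes of 0.50, 0.70 and 0.23 and Tab2 one of 0.07, and these 4 did not pass. Among all tested genes 11.2% rose by adjusted p. The adjusted p of bsk was 0.0597 under size factors and 0.312 under the length correction.

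Of 7 genes of RNA-based defence, 6 were tested and 4 rose, where 11.2% of all tested genes rose by adjusted p: Dcr-2, the Dicer that cuts long double-stranded RNA (1.22, adjusted p = 0.0211), Ago-2b, which carries small interfering RNA (0.67, 0.0433), AGO1 of the microRNA pathway (0.92, 0.041) and AGO3 of the piRNA pathway (0.82, 0.0339). Dcr-2 had 67.7, 72.9 and 84.7 FPKM in the dsTcAMPKα libraries, against 34.2, 26.5 and 34.3 FPKM in the dsEGFP libraries. Both groups had received double-stranded RNA. With median-ratio size factors 2 of the 6 passed, where 12.7% of all tested genes did. After the length correction 0 of the 6 passed, where 1.24% of all tested genes did.

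In the remaining lists, Spn28Dc, a serpin gene, rose (0.93, adjusted p = 0.0232), as did the transferrin gene Tsf3 (0.75, 0.028). These were 1 of 2 tested serpin and protease genes and 1 of 5 tested ferritin and transferrin genes, where 11.2% of all tested genes rose. The antioxidant genes Prx6a and Sod2 fell by 0.71 and 0.60 on the log2 scale (adjusted p = 0.0293 and 0.0447). Of the 9 oxidative defence genes these 2 fell and 0 rose, where 5.29% of all tested genes fell and 11.2% rose by adjusted p. Of 7 tested genes of lectins and scavenging, 0 passed, where 16.5% of all tested genes did. None of Spn28Dc, Tsf3, Prx6a and Sod2 passed after the length correction, with adjusted p values between 0.172 and 0.417. In that setting 1.24% of all tested genes passed. With median-ratio size factors Tsf3 did not pass (adjusted p = 0.0571), while Spn28Dc, Prx6a and Sod2 did (0.0286, 0.0231 and 0.042). Among all tested genes 12.7% passed with size factors. Without dsTcAMPKα replicate 1, 2 or 3 or dsEGFP replicate 2, none of the 12 genes that passed in the JAK-STAT, kinase, RNA, serpin, transferrin and oxidative lists did so (adjusted p between 0.0646 and 0.142). In those settings, in the same order, 0, 0, 34 and 54 genes of the whole table passed by adjusted p. Without dsEGFP replicate 1 Socs36E, Ago-2b, AGO3, Prx6a and Sod2 did not pass either, with adjusted p values of 0.053 to 0.083. Without dsEGFP replicate 3, where 35.6% of all tested genes passed, the genes cactin, imd, Stat92E, Dredd, kay and Jra passed as well, with log2 fold changes from 0.36 to 0.84 and adjusted p values from 0.014 to 0.0495. In the oxidative and lectin lists Duox (0.99, adjusted p = 0.0427), Ctl1 (0.53, 0.0223) and Hml passed higher in that setting.

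**Figure D5:**
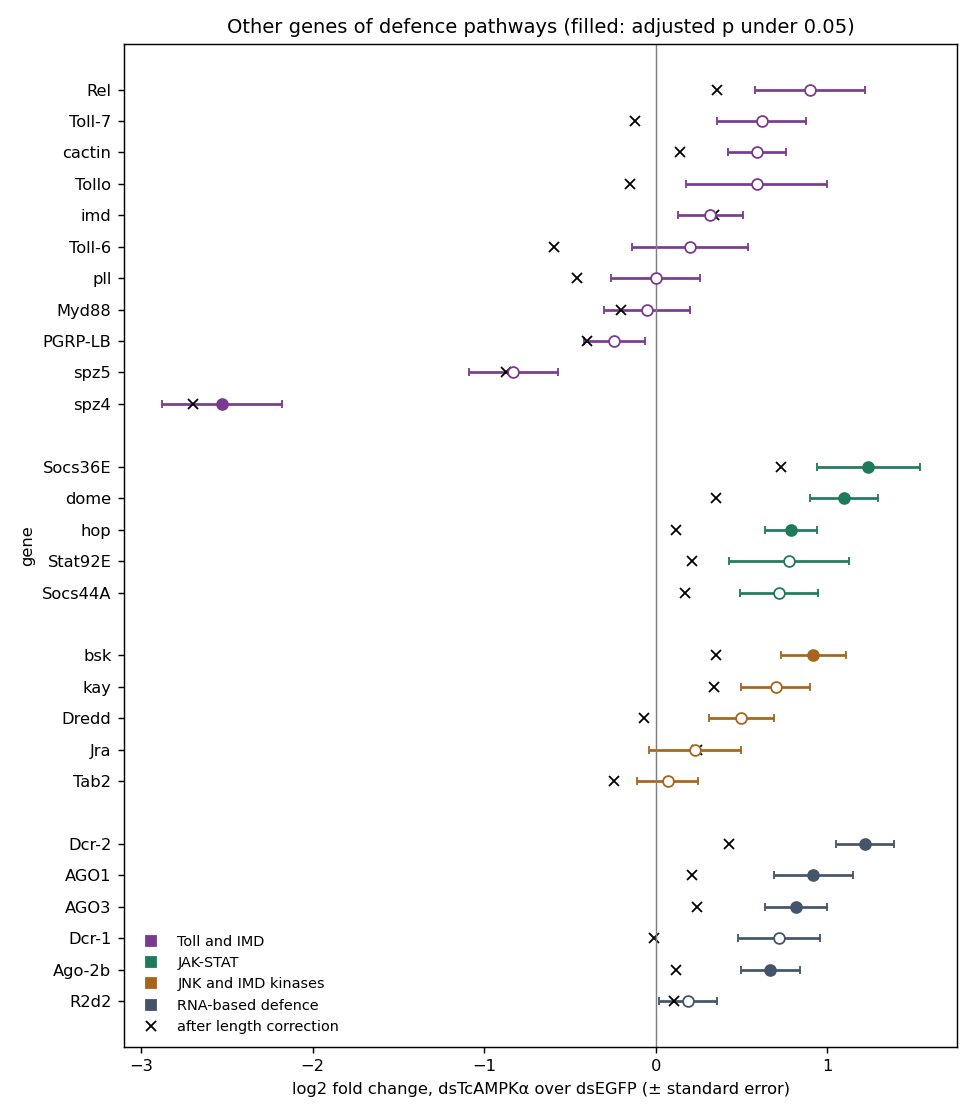
Log2 fold change, dsTcAMPKα over dsEGFP, with its standard error, of the tested genes of 4 lists of defence pathways, filled where the adjusted p was under 0.05, and the value after the length correction as a cross. The JAK-STAT and RNA-based genes lie right of 0 and their crosses closer to 0, while spz4 lies at -2.53 with its cross at -2.70.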

How the data were processed

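RNA-Seq libraries of *T. castaneum* larvae, 3 per group, were analysed. Per the study, HISAT2 placed the reads on the Tcas5.2 genome and StringTie built the transcripts, and the processing notes also name Bowtie2 and TopHat2 (versions not given in the sources used here). The authors deposited FPKM, normalized by transcript length and library total, and coverage, a signal in reads per base, for 31944 transcripts. No counts are among these values, so limma took the place of the study's count-based test.

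Gene sums of FPKM were tested as log2(FPKM + 1) where their mean was at least 1 FPKM. The test was limma 3.58.1 (lmFit, eBayes with a variance trend, R 4.3.3) and Benjamini-Hochberg adjustment over all 10981 tested genes. Fold changes on this scale understate changes of low genes. All adjusted p values are limma's. Single ratios were compared by an exact permutation test in Python 3.11.15 with scipy 1.17.1. Reads were estimated as coverage × length / 150. For the length correction a lowess trend (span 0.4) of log2 deviations on transcript length was subtracted per library. The test was checked on simulated data.

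Groups came from the labels, which number no replicates, so numbers follow deposit order and pair nothing. Replicates are separate pools of larvae by the study's protocol. Symbols of loci were read from RefSeq (assembly icTriCast1.1, names only), which gave 4031 of 13617 locus identifiers a symbol. The members, lists and tests were chosen with earlier results of these data known, and symbols of unrelated genes were struck from the lists after the files had been read. In the serpin and protease list 27 symbols were struck and 3 kept, and in the moult and stage list 13 and 9. The RNA-based list lost 7 and kept 7, and the ferritin and transferrin list lost 6 and kept 5. Every other list lost at most 3. Values per library are given for members with a mean of at least 10 FPKM, an adjusted p under 0.05, an absolute log2 fold change above 1 or a highest library of at least 5 times the lowest, and the targeted gene Snf1a is the check of the labels. Sequences are not printed here.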

Additional observations from a re-analysis of the deposited data

How the results depend on the processing

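The 747 calls over all genes became 1643 with TPM (FPKM rescaled to a common library total), 121 with the length correction and 1807 with no limit on the fold change, and lay between 0 and 1199 with each library left out. Median-ratio size factors turned the split of 449 higher and 298 lower calls into 168 and 429. The 1 call among the immune genes became 3 with TPM and 3 with no limit on the fold change, 0 with the length correction and 0 with limma-voom on estimated reads, and was 0 to 2 with each library left out. The length correction gave log2 fold changes of -2.77 for spz6, 0.63 for Cact and 0.55 for Dl, all past the threshold of adjusted p no longer, and in the same way limma-voom gave -3.01 for spz6, median-ratio size factors 0.66 for Cact and annotated transcripts alone 1.47 for Dl. The causes were not tested. With each library left out in turn, log2 fold changes ranged from -3.19 to -2.03 for spz6, 0.13 to 0.72 for Spz3, 0.77 to 1.09 for Cact, 0.86 to 0.97 for Dl, 0.25 to 0.71 for Gnbp2 and -1.31 to 0.09 for cec2. The value of 0.09, without dsTcAMPKα replicate 3, is the only change of sign among the 6 genes under the 16 alternatives that give a fold change. Among the other genes named, with no value past the test where the sign turned, the length correction gave -0.59 for Toll-6, -0.12 for Toll-7, -0.15 for Tollo, -0.07 for Dredd, -0.24 for Tab2, -0.03 for NimA, -0.01 for Duox, -0.18 for Ctl1 and -0.06 for Mhc. TPM gave 0.21 for Myd88, 0.25 for pll and 0.01 for PGRP-LB, median-ratio size factors -0.14 and quantile normalization -0.11 for Tab2. With each library left out the values ran from -0.04 to 0.45 for Toll-6, -0.23 to 0.23 for Myd88, -0.14 to 0.28 for pll and -0.07 to 0.16 for Tab2. No paired analysis was possible because the labels number no replicates. Having 3 libraries per group limits the precision, and single libraries decide several calls. No counts were used, so counting error was not modelled from counts, and limma-voom took only reads estimated from coverage.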
